A study of Mus musculus with 6 samples.

Results

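The genes described here carry out the oxidation of fatty acids in mitochondria and peroxisomes, together with the regulators of that pathway and a pair of aldehyde dehydrogenases. They were 32 genes of the 56448 in the table, taken by gene symbol alone, and each symbol matched 1 row. Their levels were measured by messenger RNA sequencing in 4T1 cells, a mouse mammary carcinoma line grown in culture with fetal bovine serum. There were 3 libraries whose genotype was given as in9 and 3 whose genotype was given as LV2. The series text describes a lentivirus line with stable knockdown of the microRNA miR-9 and a control line. The labels neither spell out in9 and LV2 nor name the control, so every difference below is in9 minus LV2. No clone, passage or separate culture is named for the libraries, so each p-value reflects the scatter of these particular libraries, and that scatter may be technical. The text of the series mentions a microarray and tissue RNA, whereas the labels describe sequenced cells.

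Fatty acids enter mitochondria as carnitine esters, which are made at the outer membrane, carried across the inner membrane and turned back into acyl-CoA in the matrix. A repeating cycle of dehydrogenation, hydration, a second oxidation and thiolysis then removes acetyl-CoA, and the electrons of the opening dehydrogenation pass through an electron transfer flavoprotein to the respiratory chain. Peroxisomes run a parallel cycle on very long and branched chains, whose oxidase passes electrons to oxygen and yields hydrogen peroxide, which catalase removes.

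The values were TPM (transcript abundance per length and library total), so sequencing depth is unknown and levels of different genes can be set side by side. Genes with a mean of at least 1 TPM over the 6 libraries were tested (13406 genes), on the log2(TPM + 1) scale with limma, and p-values were adjusted over all of them by the Benjamini-Hochberg method. On the first principal component in9 replicate 1 lay at -2.70, against 26.1 and 27.8 for the other in9 libraries, while LV2 libraries lay between -22.2 and -6.98. Transcripts of the mitochondrial chromosome held 6.42% to 7.64% of all TPM in in9 and 5.90% to 6.01% in LV2. Of 8 mammary epithelial markers 7 had a mean of at least 1 TPM, and Krt5 was listed at 0.03 TPM or less. The summed levels of leukocyte, adipocyte, hepatocyte and striated muscle markers reached at most 0.41 TPM in any library, and that of 3 endothelial markers was 1.97 to 2.17 TPM in in9 and 1.71 to 1.95 TPM in LV2. Of 4 fibroblast markers, Lum was listed at 0 throughout and Col1a1 and Dcn stayed at 0.23 TPM or less, while the sum, nearly all Pdgfra, was 7.92 to 8.43 TPM in in9 and 4.72 to 6.70 TPM in LV2. The part of these shifts in the results below was not tested. In bulk RNA a change in the share of cells that express a gene and a change in its RNA per cell cannot be told apart.

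The genes covered a wide range of levels. Aldh2, the mitochondrial enzyme that oxidises acetaldehyde, was the most abundant, at 267 ± 4.19 TPM in in9 and 204 ± 2.88 TPM in LV2 (SD, n = 3 each, as throughout). Etfb and Etfa, the subunits of the electron transfer flavoprotein, and Acadl, an acyl-CoA dehydrogenase of long chains, came next. The order of Acadl and Etfa was not the same in both groups. In in9 each Acadl value, from 132 to 138 TPM, lay above each Etfa value, from 108 to 119 TPM, whereas in LV2 the genes overlapped, at 114 to 118 TPM for Acadl and 115 to 120.0 TPM for Etfa. Hadha and Hadhb, the subunits of the mitochondrial trifunctional protein, followed at a mean of 74.1 and 66.8 TPM over all libraries, and their ranges overlapped. From Hadh at 48.5 TPM to Cpt2 at 22.4 TPM the means stepped down gradually, and Slc25a20, at 13.98 TPM, was the last gene above 10 TPM.

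Of the 32 genes 6 stood below the minimum of 1 TPM and were not tested. Cd36, a fatty acid uptake receptor, and Pdk4, a kinase that shuts pyruvate out of the citric acid cycle, were listed at 0 in all 6 libraries. Decr1, the mitochondrial dienoyl-CoA reductase needed for polyunsaturated chains, was listed at 0.02 TPM in in9 replicate 2 and at 0 in the other libraries. Decr1 spans positions 15917240 to 15945507 of chromosome 4 in mm10. Of the genes on either side, Nbn was at 10.7 to 13.8 TPM in in9 and 12.01 to 13.4 TPM in LV2, and Calb1 was, like Decr1, listed at or near 0, with 0 in all 6 libraries. Ehhadh, the peroxisomal bifunctional enzyme, was at 0 to 0.05 TPM in in9 and 0.04 to 0.09 TPM in LV2. Ppargc1a, the coactivator that drives mitochondrial biogenesis, reached 0.03 TPM in in9 replicate 1 and 0.06 TPM in LV2 replicate 2 and was listed at 0 elsewhere. Cpt1b, the muscle form of carnitine palmitoyltransferase 1, was at 0.70, 0.79 and 1.05 TPM in in9 against 0.84, 1.07 and 1.10 TPM in LV2, so the groups overlapped.

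**Figure D1:**
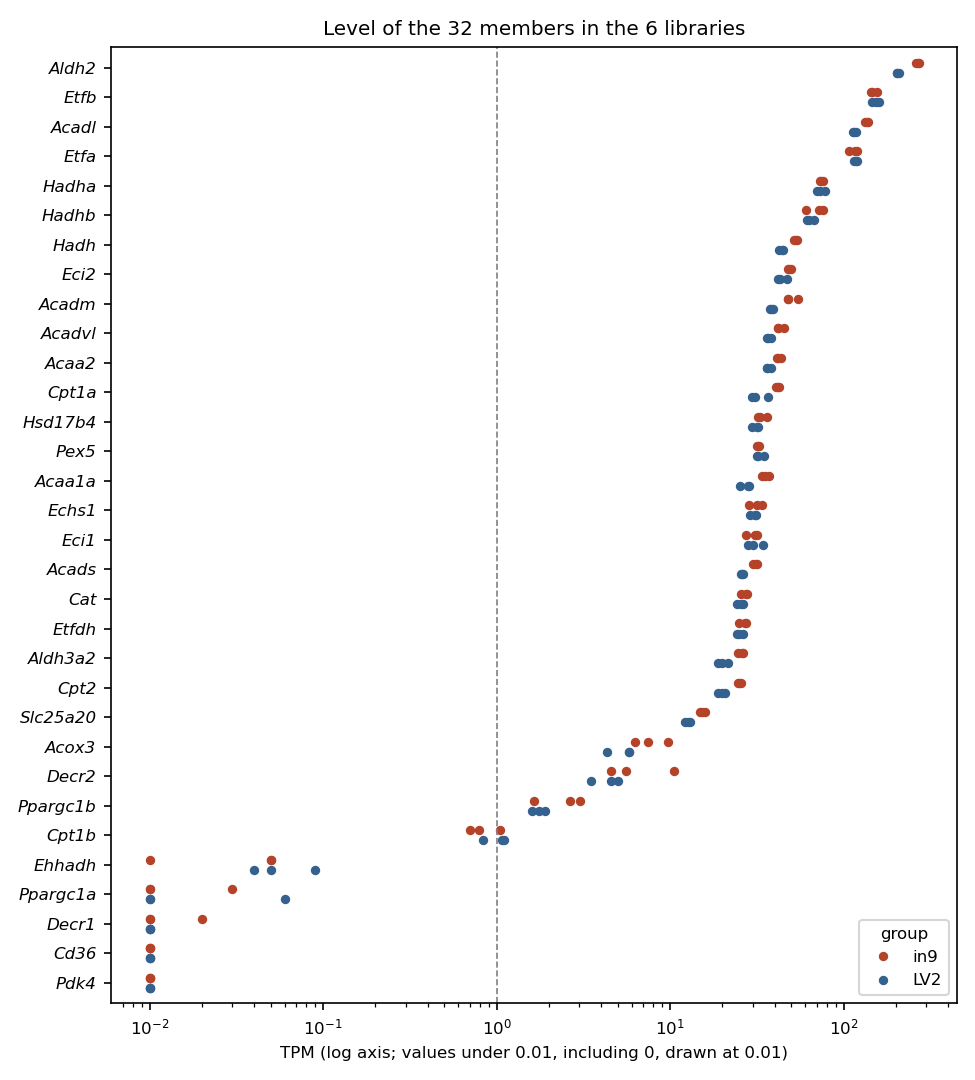
Level of each of the 32 genes in each library, in TPM on a log axis, with in9 drawn above LV2 in each row and the dashed line at the minimum mean of 1 TPM for testing. Aldh2 leads at 267 TPM in in9 and 204 TPM in LV2, and 6 genes fall below the minimum, of which Cd36 and Pdk4 are at 0 in every library.

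The main comparison asked which of these genes differed between in9 and LV2 cells. Of the 26 tested genes 1, Aldh2, was higher at an adjusted p under 0.05 in limma, where 0.821% of all tested genes were higher, and 0 were lower, where 0.194% of all tested genes were lower. At an unadjusted p under 0.05, 14 of the 26 were higher, against 13.6% of all tested genes, and 0 were lower, against 5.86%. The in9 and LV2 values of 15 genes did not overlap, all 15 with in9 above, where 17.4% of all tested genes had no overlap in that direction and 8.08% in the other. The log2 fold change was positive in 22 of the 26, against 63.7% of all tested genes. Its median was 0.22 over the 26 genes and 0.06 over all tested genes.

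These counts moved with scaling and with single libraries. After trimmed-mean scaling between libraries, which brings the median of all tested genes to 0.00, the median of the 26 was 0.15. With that scaling 0 were called, against 0.642% of all genes, 12 were higher at an unadjusted p under 0.05, against 9.13%, and 12 did not overlap with in9 above and 1, Pex5, with in9 below, against 12.5% and 12.7%. Acaa2, Eci2 and Hsd17b4 were the genes whose groups overlapped only after that scaling. The count of 1 called gene was 7 without in9 replicate 1, where 7.25% of all genes were called higher, and 0 without any other single library. It was 11 with library weights estimated by limma (8.7% of all genes) and 6 with protein-coding genes only (2.76%).

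**Figure D2:**
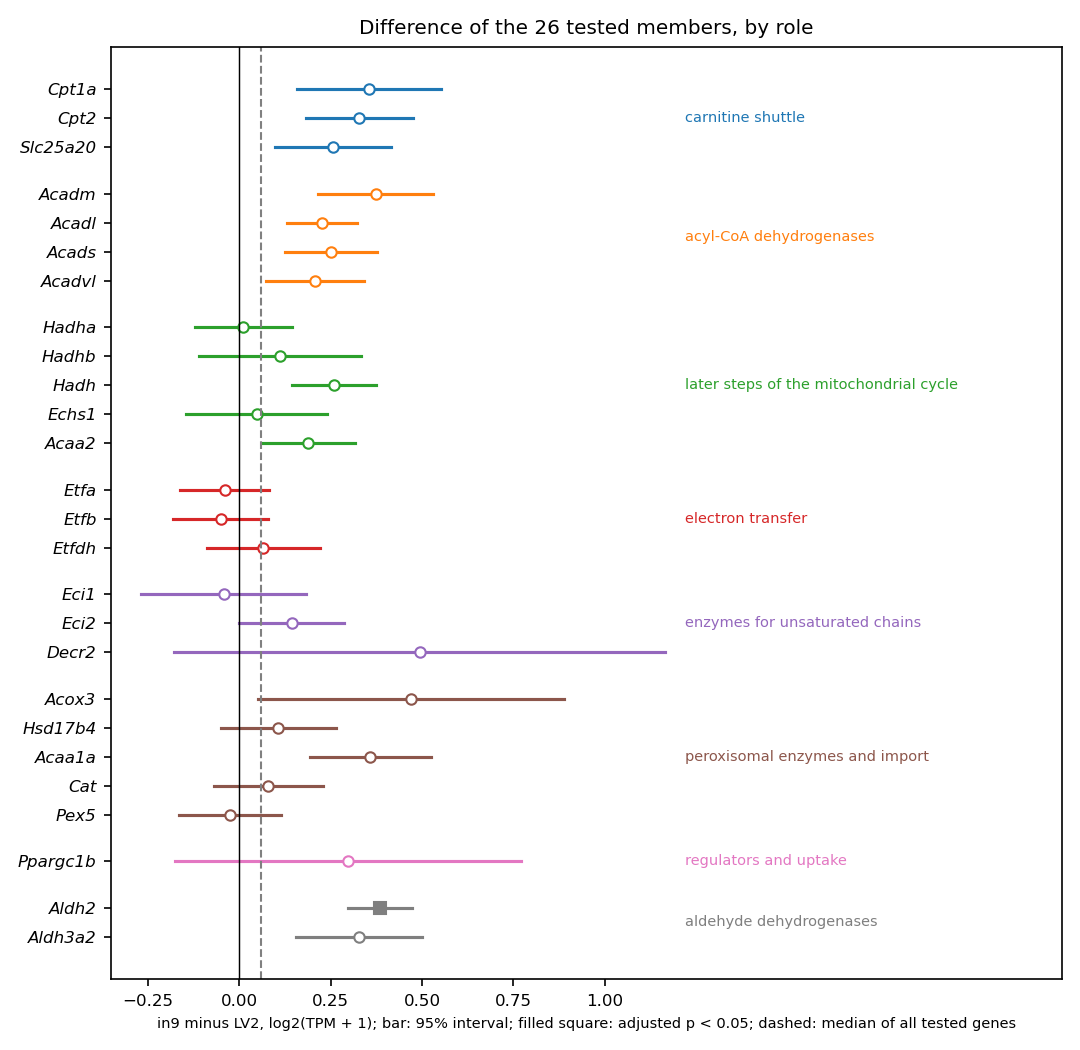
Difference in9 minus LV2 on the log2(TPM + 1) scale for the 26 tested genes, grouped by role, with 95% intervals from limma and the dashed line at the median of all tested genes, 0.06. Aldh2, the filled square at 0.39, is the gene that passed the adjusted threshold, and the intervals of all carnitine shuttle genes and acyl-CoA dehydrogenases tested lie above 0 while those of Hadha, Etfa and Etfb cross it.

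Aldh2 was at 270.5, 263 and 269 TPM in in9, against 202, 204 and 208 TPM in LV2. Each in9 library was above each LV2 library, and the gap between the groups was several times the spread within either. Aldh2 rose by 0.39 ± 0.04 (SE) on the log2 scale (limma, adjusted p = 0.0148). The rise was 0.32 after trimmed-mean scaling, with an adjusted p of 0.0572, and 0.38 to 0.40 when single libraries were left out. Over all alternatives its adjusted p ran from 0.00409 to 0.208. It was 0.00771 without in9 replicate 1 and between 0.0685 and 0.126 without any other single library.

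Aldh2 was also the gene of the set with the most letter matches to 7-base sites of miR-9, which is why these sequences are shown. The precursors of miR-9 lie on chromosomes 3, 7 and 13 and give the same mature strands. The mature miR-9-5p and miR-9-3p are given from RefSeq (build GRCm38.p6) with bases 2 to 8, the seed, in capitals. Below them stand 30 bases of the Aldh2 3' untranslated region (chr5:121567884-121567913, minus strand, mm10, bases 78 to 107 of 1964) with the 7-base miR-9-5p matches in capitals. Another 30 bases follow (chr5:121566154-121566183, minus strand) with the match to the miR-9-3p seed in capitals.
miR-9-5p: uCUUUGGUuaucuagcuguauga
miR-9-3p: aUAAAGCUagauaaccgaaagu
Aldh2 and miR-9-5p: cctCCAAAGAgaaaccccttcACCAAAGtg
Aldh2 and miR-9-3p: acggtgagcttAGCTTTAgaactagccagt
The 7-base forms searched were ACCAAAG and CCAAAGA for miR-9-5p and AGCTTTA and GCTTTAA for miR-9-3p, on the transcript strand of the longest annotated 3' untranslated region in GENCODE M21. For each microRNA strand the first form pairs with bases 2 to 8, and the second with bases 2 to 7, followed by an A. An 8-base match that joins both forms was counted as 1 site. Of the Aldh2 matches to miR-9-5p, CCAAAGA is of the second form and ACCAAAG of the first. The Aldh2 matches to miR-9-5p begin 18 bases apart.

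Matches were otherwise few in the set. Of the 26 tested genes 2 held a miR-9-5p match (7.69%), against 22.2% of 10952 tested genes with an annotated 3' untranslated region. These 2 were Aldh2 and Eci1, whose match lies at chr17:24439268-24439297. The regions of the 26 genes were short, with a median length of 565 bases against 1167 bases over tested genes, which bears on the chance of a match. It also bears on Aldh2, whose region of 1964 bases was the longest of the 26. A miR-9-3p match was found in 1 of the 26, Aldh2, against 19.4% of tested genes. Among the untested genes Ehhadh held a match to miR-9-5p, Decr1 and Cd36 held one to miR-9-3p, and Pdk4 held one to each. Over all tested genes, 561 had at least 2 miR-9-5p matches, of which 5 (0.891%) were called higher, against 1.03% of the 8516 with no match. The median log2 fold change was 0.08 and 0.06 in these groups. With 1 such match, 12 of 1875 genes (0.640%) were called higher, with a median of 0.07. As in Aldh2, 234 genes had at least 2 miR-9-5p matches and a miR-9-3p match. Of these 3 (1.28%) were called higher, with a median of 0.09. Aldh2 is itself counted among the 5 and the 3. A letter match is not a measured site, and mature miR-9 is not read by messenger RNA sequencing.

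Aldh3a2, the fatty aldehyde dehydrogenase of the endoplasmic reticulum and peroxisome, had no miR-9 match. It was at 26.3, 24.5 and 25.9 TPM in in9, against 21.7, 18.8 and 20.03 TPM in LV2. The groups did not overlap, and the log2 fold change was 0.33 ± 0.07 (SE, adjusted p = 0.0872 in limma).

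The carnitine shuttle was higher in every in9 library for each of its 3 tested genes. Cpt1a, the rate-limiting transferase at the outer membrane, was at 40.6, 42.2 and 42.1 TPM in in9, against 36.5, 31.1 and 29.8 TPM in LV2. Cpt2, the inner-membrane transferase that reforms acyl-CoA, was at 24.7, 24.9 and 25.7 TPM in in9, against 19.9, 18.8 and 20.7 TPM in LV2. Slc25a20, the carnitine-acylcarnitine carrier between them, was at 14.9, 15.2 and 15.9 TPM in in9, against 12.6, 12.3 and 13.1 TPM in LV2. The groups of none of these genes overlapped, where 17.4% of all tested genes had no overlap with in9 above. LV2 replicate 1 stood nearest to in9 for Cpt1a. The log2 fold changes of Cpt1a, Cpt2 and Slc25a20 were 0.36 ± 0.08, 0.33 ± 0.06 and 0.26 ± 0.07 (SE). None passed the adjusted threshold in limma (adjusted p = 0.0983, 0.0652 and 0.121). All 3 were higher at an unadjusted p under 0.05, as were 13.6% of all tested genes. This also held after trimmed-mean scaling, where 9.13% of all tested genes were higher. Leaving out in9 replicate 1 brought Cpt2 past the threshold (adjusted p = 0.0357). Cpt1a exceeded Cpt2 by 1.64 to 1.69 times in in9 and 1.44 to 1.83 times in LV2, and the liver form Cpt1a exceeded the muscle form Cpt1b by 40.1 to 58.0 times in in9 and 27.1 to 43.4 times in LV2. Cpt1b lies within the annotated read-through gene Gm44502 on the same strand, which was at 3.77 to 6.41 TPM in in9 and 3.11 to 6.57 TPM in LV2, so the level of Cpt1b alone is uncertain.

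All 4 acyl-CoA dehydrogenases, which take the opening step of each turn and divide the work by chain length, were higher in in9 without overlap. Of all tested genes 17.4% had no overlap in that direction. Acadm, for medium chains, was at 48.0, 47.6 and 54.4 TPM in in9, against 39.2, 38.3 and 37.6 TPM in LV2. Acadl was at 138, 136 and 132 TPM in in9, against 114, 118 and 115 TPM in LV2. The LV2 values of both genes lay close together, and for Acadm in9 replicate 3 was the highest of all. Acads, for short chains, was at 29.95, 31.4 and 31.9 TPM in in9, against 26.2, 25.7 and 25.9 TPM in LV2. Acadvl, for very long chains, was at 41.7, 41.7 and 45.1 TPM in in9, against 36.0, 36.9 and 38.0 TPM in LV2. The sum of the 4 was 259 ± 3.99 TPM in in9 and 217 ± 1.56 TPM in LV2.

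The log2 fold changes of the dehydrogenases were 0.37 ± 0.07 for Acadm, 0.25 ± 0.05 for Acads, 0.23 ± 0.04 for Acadl and 0.21 ± 0.06 for Acadvl (SE). None passed the adjusted threshold in limma, with adjusted p of 0.0607, 0.0816, 0.0597 and 0.131 in that order. Leaving out in9 replicate 1 brought Acadm, Acads and Acadl past it (adjusted p = 0.0294, 0.0322 and 0.0288). With trimmed-mean scaling the values were 0.31, 0.19, 0.16 and 0.14, all 4 still without overlap. With that scaling 12.5% of all tested genes had no overlap with in9 above. The ratio of Acadl to Acadvl was 2.93 to 3.31 in in9 and 3.04 to 3.19 in LV2, so these long-chain genes kept one proportion within their spread. Acadvl shares 2119 bases with Dvl2 on the opposite strand, and whether reads were counted by strand is not given in the sources used here. Dvl2 was at 22.4 to 25.7 TPM in in9 and 18.2 to 19.5 TPM in LV2, so part of the Acadvl difference cannot be told apart from that of Dvl2.

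**Figure D3:**
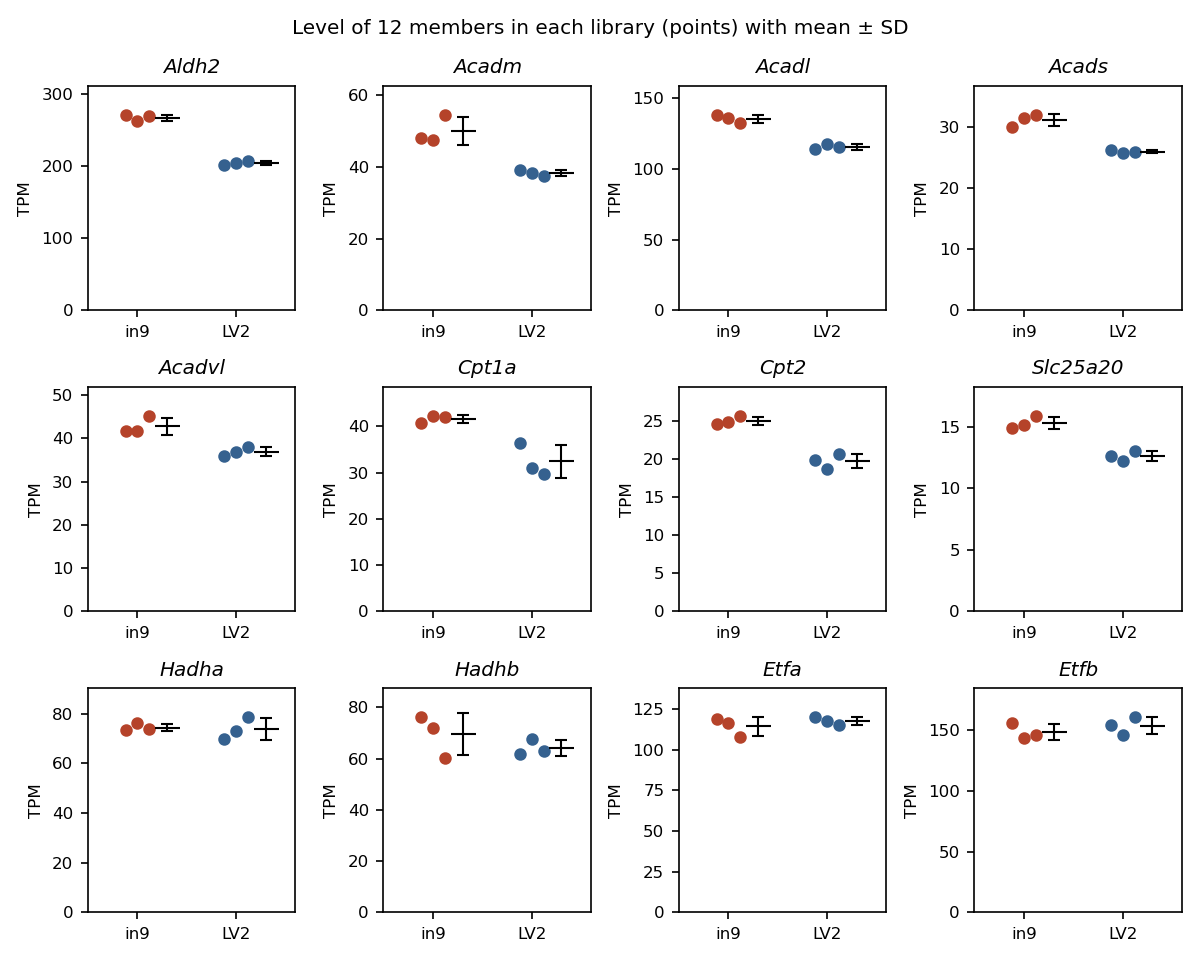
TPM of 12 genes in each library, in9 left of LV2, with the mean and SD as bars beside the points and the axis starting at 0. The groups are apart for Aldh2, the 4 acyl-CoA dehydrogenases and the 3 carnitine shuttle genes, and overlap for Hadha, Hadhb, Etfa and Etfb.

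The later steps of the mitochondrial cycle were divided. Hadh, the 3-hydroxyacyl-CoA dehydrogenase of short and medium chains, was at 53.9, 51.9 and 52.9 TPM in in9, against 44.4, 45.0 and 42.7 TPM in LV2. Acaa2, the thiolase of the matrix, was at 43.8, 41.3 and 41.6 TPM in in9, against 36.3, 36.2 and 38.4 TPM in LV2. Neither gene's groups overlapped. Their log2 fold changes were 0.26 ± 0.05 and 0.19 ± 0.05 (SE), with adjusted p of 0.0633 and 0.138 in limma, and Hadh was called without in9 replicate 1 (adjusted p = 0.0361).

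The trifunctional protein, which performs the last 3 reactions on long chains, did not separate the groups. Hadha was at 73.5, 76.0 and 73.6 TPM in in9, against 69.9, 73.1 and 78.5 TPM in LV2. Hadhb was at 76.1, 72.0 and 60.4 TPM in in9, against 61.6, 67.5 and 62.9 TPM in LV2, and in9 replicate 3 was the lowest of all 6. The log2 difference had a 95% interval of -0.12 to 0.14 for Hadha and -0.11 to 0.33 for Hadhb, and the small difference of Hadha was -0.05 with trimmed-mean scaling, -0.02 with quantile normalization and 0.03 when rescaled without mitochondrial transcripts. The ratio of Hadha to Hadhb was 0.965 to 1.219 in in9 and 1.083 to 1.248 in LV2. The annotated genes stand head to head on chromosome 5 with starts 86 bases apart (Hadha at 30118304 to 30155162 on the minus strand, Hadhb at 30155248 to 30184593 on the plus strand, mm10). Echs1, the short-chain enoyl-CoA hydratase, was at 34.1, 31.8 and 28.4 TPM in in9, against 31.2, 28.8 and 30.9 TPM in LV2, again with overlap.

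With all libraries the electron transfer genes showed no separation of the groups, in contrast to the dehydrogenases that pass electrons to them. The contrast between these groups of genes is descriptive and was not tested. Etfa was at 119, 116 and 108 TPM in in9, against 120.0, 117 and 115 TPM in LV2. Etfb was at 156, 143 and 145 TPM in in9, against 154, 146 and 160.2 TPM in LV2. Etfdh, the inner-membrane oxidoreductase that receives the electrons, was at 24.8, 27.4 and 27.2 TPM in in9, against 26.2, 24.95 and 24.4 TPM in LV2. All 3 overlapped, and the 95% intervals of the log2 difference were -0.16 to 0.08, -0.18 to 0.08 and -0.09 to 0.22. Without in9 replicate 1 the groups of Etfdh did not overlap, with in9 above, nor did those of Etfb, with in9 below. In that setting 4900 of all 13386 tested genes did not overlap with in9 above and 1896 with in9 below. The adjusted p of Etfdh and Etfb without in9 replicate 1 were 0.256 and 0.285 in limma. Etfdh shares 422 bases with 4930579G24Rik on the opposite strand, which was at 12.5 to 14.2 TPM in in9 and 10.1 to 11.3 TPM in LV2. The 95% intervals of Etfa and Etfb overlapped that of Acadvl, 0.07 to 0.34, and lay below those of Acadm, Acads and Acadl. That of Etfdh overlapped the intervals of all 4 dehydrogenases. The sum of Etfa, Etfb and Etfdh was 289 ± 9.79 TPM in in9 and 296 ± 6.84 TPM in LV2. Etfb was 5.24 to 6.27 times as abundant as Etfdh in in9 and 5.84 to 6.56 times in LV2, and the ratio of Etfa to Etfb was 0.742 to 0.810 in in9 and 0.719 to 0.806 in LV2.

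Among the enzymes that handle double bonds, Eci2, an enoyl-CoA isomerase found in mitochondria and peroxisomes, was at 48.2, 49.8 and 47.6 TPM in in9, against 43.0, 46.9 and 41.7 TPM in LV2. Its groups did not overlap by a margin of less than 1 TPM, and they overlapped after trimmed-mean scaling. Eci1, the mitochondrial isomerase, was at 31.7, 27.3 and 30.7 TPM in in9, against 34.4, 29.99 and 28.2 TPM in LV2. Decr2, the peroxisomal dienoyl-CoA reductase, was at 5.56, 10.6 and 4.58 TPM in in9, against 4.58, 5.01 and 3.52 TPM in LV2. Its log2 fold change of 0.49 ± 0.28 (SE) rested on in9 replicate 2 and was 0.18 without that library. None of the 3 passed the adjusted threshold in limma, with adjusted p from 0.256 to 0.829, and Decr1 was untested.

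The peroxisomal genes varied among themselves. Acaa1a, the peroxisomal 3-ketoacyl-CoA thiolase, was at 37.0, 35.2 and 33.8 TPM in in9, against 28.7, 28.0 and 25.3 TPM in LV2. Acox3, the oxidase of branched chains, was at 6.28, 9.69 and 7.44 TPM in in9, against 5.80, 5.80 and 4.35 TPM in LV2. Neither overlapped, and in9 replicate 2 was the highest value of Acox3. Their log2 fold changes were 0.36 ± 0.07 and 0.47 ± 0.17 (SE), with adjusted p of 0.0692 and 0.216 in limma. Acaa1a was called without in9 replicate 1 (adjusted p = 0.0458). Its paralog Acaa1b was at 0.99 to 2.16 TPM in in9 and 0.95 to 2.07 TPM in LV2, and reads may have been split between them. Acaa1a also shares 1736 bases with Myd88 on the opposite strand, which was at 24.4 to 27.3 TPM in in9 and 25.4 to 28.0 TPM in LV2, with overlap.

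The other peroxisomal genes lay close to the LV2 level. Hsd17b4, the multifunctional enzyme of the middle steps of the cycle, was at 32.3, 36.0 and 32.9 TPM in in9, against 32.2, 29.7 and 31.9 TPM in LV2, and its groups overlapped once scaled. Cat, catalase, was at 25.6, 27.5 and 27.8 TPM in in9, against 26.5, 25.6 and 24.4 TPM in LV2. Pex5, the receptor that imports matrix enzymes, was at 31.6, 32.1 and 32.7 TPM in in9, against 34.7, 31.5 and 31.95 TPM in LV2. The deposited values of Cat and Pex5 overlapped between the groups. The 95% intervals of the log2 difference were -0.05 to 0.26, -0.07 to 0.23 and -0.16 to 0.11 for these genes in the same order.

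Of the regulators, Ppargc1b, a coactivator related to Ppargc1a, was tested. It was at 1.64, 2.65 and 3.01 TPM in in9, against 1.91, 1.76 and 1.59 TPM in LV2. In9 replicate 1 lay inside the LV2 range and the other in9 libraries above it. Its log2 fold change was 0.30 ± 0.20 (SE, adjusted p = 0.446 in limma) and 0.48 without in9 replicate 1 (adjusted p = 0.111).

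In9 replicate 1, which stood apart over all genes, lay with the other in9 libraries in the median of this set but not in every role group. The median difference of the 26 genes from the LV2 mean was 0.21, 0.22 and 0.18 in in9 replicates 1, 2 and 3, and -0.03 to 0.03 in the LV2 libraries. The LV2 libraries enter that mean, which draws their values towards 0, here and in the groups below. Over all tested genes the same median was 0.00, 0.08 and 0.09 in the in9 libraries and -0.03 to 0.03 in LV2. For the dehydrogenases it was 0.23, 0.25 and 0.28 in in9, and for the carnitine shuttle 0.31, 0.32 and 0.36. For the electron transfer genes it was 0.02, -0.02 and -0.08 in in9, within or below the LV2 range of -0.03 to 0.03. For the peroxisomal genes in9 replicate 1 was at 0.05, inside the LV2 range of -0.06 to 0.07, and in9 replicates 2 and 3 were at 0.20 and 0.12. Ppargc1b, the one regulator tested, had values of -0.06, 0.41 and 0.54 in in9 replicates 1, 2 and 3. For the later steps of the cycle in9 replicate 3 was the low library, at -0.00, while in9 replicates 1 and 2 were at 0.24 and 0.16. The summed level of the 32 genes was 1436, 1417 and 1401 TPM in in9 and 1264, 1248 and 1255 TPM in LV2, and 1132 to 1166 TPM against 1044 to 1062 TPM without Aldh2.

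**Figure D4:**
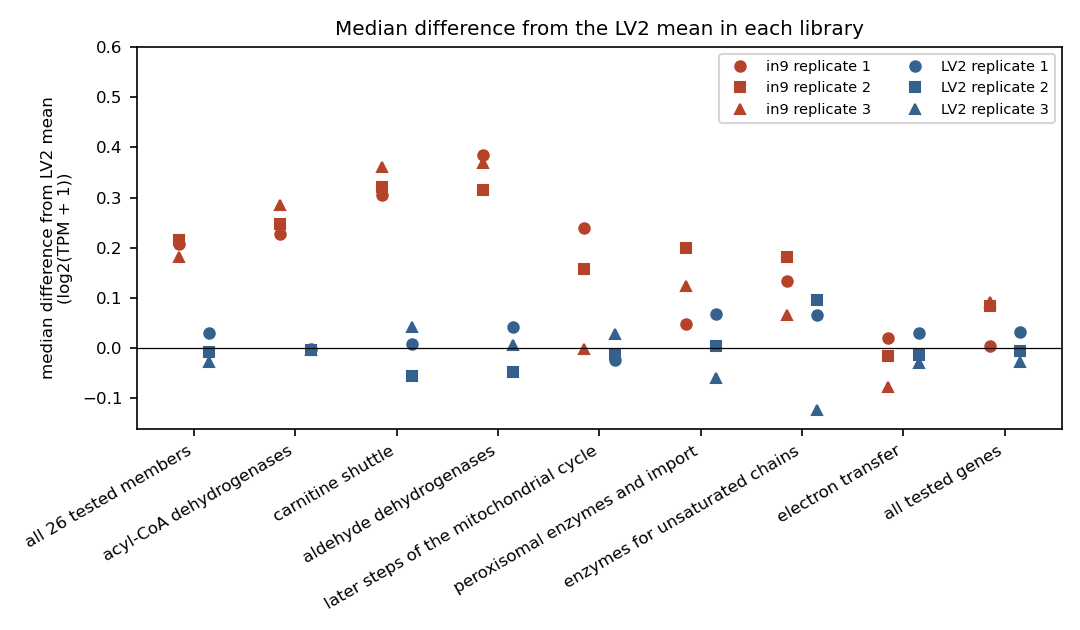
Median difference from the LV2 mean on the log2(TPM + 1) scale in each library, in9 left of LV2. Shown are all 26 tested genes, the role groups except that of Ppargc1b, and all tested genes. The LV2 libraries enter the LV2 mean, which draws their values towards 0. In9 replicate 1 lies with the other in9 libraries for the 26 genes (0.21) and at the LV2 level for all tested genes (0.00), and the electron transfer genes lie near 0 in both groups.

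Genes around the pathway were read from 12 lists with 144 genes in the table, of which 111 were tested. The lists were chosen with earlier results of these data known, so their counts are not independent evidence. With all libraries none of the 111 was called in limma in either direction. Without in9 replicate 1, 14 were called higher and 2 lower, against 19 and 1 with library weights and 10 and 1 with protein-coding genes only. In the same settings 7.25%, 8.7% and 2.76% of all genes tested were called higher (971, 1166 and 305 genes). Those called lower over all genes numbered 509, 523 and 85. With p below 0.05 before adjustment there were 24 higher and 3 lower genes, where 13.6% and 5.86% of all tested genes were higher and lower, shares that also stand behind the list counts that follow. The median log2 fold change was 0.09, against 0.06 over all tested genes. Of 17 tested peroxisomal enzymes and transporters 8 were higher and 1 lower at that level (13.6% and 5.86% over all tested genes). They included Prdx5, a peroxiredoxin, at 316 ± 8.91 TPM in in9 and 263 ± 8.33 TPM in LV2 (adjusted p = 0.0541), and Idh1, the NADP-dependent isocitrate dehydrogenase of cytosol and peroxisome, at 41.3 ± 2.18 TPM in in9 and 31.6 ± 1.52 TPM in LV2 (adjusted p = 0.0577). The lower gene, named after its values were seen, was the hydrolase gene Nudt19, at 38.0 ± 1.03 TPM in in9 and 42.9 ± 0.676 TPM in LV2. Of 15 tested peroxins 1 was higher, Pex19, a chaperone of membrane proteins, at 48.7 ± 3.14 TPM in in9 and 39.3 ± 1.16 TPM in LV2, while Pex2 had a log2 fold change of -0.13.

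All 8 tested members of the list of other aldehyde dehydrogenases had a positive log2 fold change, where 63.7% of all tested genes did. These changes ran from 0.03 to 0.81, and the median over all tested genes was 0.06. Of the 8 genes 3 had an unadjusted p under 0.05 with in9 higher, where 13.6% of all tested genes did. Aldh3a1 was at 6.90 ± 0.849 TPM in in9 and 3.51 ± 0.635 TPM in LV2, Aldh3b1 at 18.8 ± 0.350 TPM in in9 and 13.8 ± 1.38 TPM in LV2, and Aldh16a1 at 12.2 ± 1.04 TPM in in9 and 9.03 ± 0.587 TPM in LV2. Their adjusted p were 0.0633, 0.0761 and 0.101 in limma. Among 6 tested lipid droplet genes, 4 had higher and 1 had lower values with an unadjusted p under 0.05, against 13.6% and 5.86% over all tested genes. Plin3, a droplet coat protein, was at 21.6 ± 0.304 TPM in in9 and 17.1 ± 0.465 TPM in LV2, the hormone-sensitive lipase gene Lipe at 20.8 ± 0.765 TPM in in9 and 15.8 ± 1.12 TPM in LV2, and the lysosomal lipase gene Lipa at 9.78 ± 0.535 TPM in in9 and 7.55 ± 1.11 TPM in LV2. Named after their values were seen were the fourth higher gene, the triglyceride lipase gene Pnpla2, at 35.3 ± 1.76 TPM in in9 and 31.0 ± 2.47 TPM in LV2, and the lower gene, the droplet coat gene Plin2, at 464 ± 8.76 TPM in in9 and 500.2 ± 13.1 TPM in LV2.

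The supply of fatty acids to the pathway was not uniform. Of 8 tested fatty acid transport and binding genes Acbd5 was higher and Fabp5, a cytosolic fatty acid binding protein, lower at an unadjusted p under 0.05, with Fabp5 at 228 ± 15.1 TPM in in9 and 275 ± 11.7 TPM in LV2 (adjusted p = 0.0961 in limma), and Acbd3 had a log2 fold change of 0.10. Of 8 tested acyl-CoA synthetases 1 was higher, Acss2, which activates acetate, at 15.5 ± 0.291 TPM in in9 and 11.8 ± 0.538 TPM in LV2, while the long-chain synthetases Acsl4 and Acsl1 had log2 fold changes of 0.23 and -0.17. Of 6 tested genes of carnitine supply and other carnitine transferases none had an unadjusted p under 0.05, and the smallest p-values were those of Crot (0.19), Crat (0.15) and Aldh9a1 (0.05), given here with their log2 fold changes. Of 8 tested genes of malonyl-CoA control, which sets the activity of Cpt1a, 1 was higher at that level, the kinase subunit Prkab2 (0.33 ± 0.13 SE), and Acaca and Prkab1 had log2 fold changes of 0.24 and -0.08.

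Among 16 tested relatives of the dehydrogenases and other matrix enzymes, 3 were higher at an unadjusted p under 0.05. These were Acad12, at 1.97 ± 0.369 TPM in in9 and 0.750 ± 0.185 TPM in LV2, Acad9 (log2 fold change 0.23 ± 0.08 SE) and Pcca (0.34 ± 0.14). Acad12 was below 1 TPM in every LV2 library (0.61, 0.68 and 0.96 TPM). It reached the minimum mean for testing only through its in9 values, so its count as higher is tied to the filter. Of 7 tested pyruvate dehydrogenase genes Pdk1 and Pdk3, kinases that inhibit the complex, were higher at that level. Pdk1 was at 31.6 ± 2.50 TPM in in9 and 22.1 ± 2.47 TPM in LV2 (adjusted p = 0.0723 in limma), Pdk3 had a log2 fold change of 0.19 ± 0.07 (SE), and Pdha1 one of 0.14. Of 9 tested transcription regulators none had an unadjusted p under 0.05, and Rxrb, Ncor1 and Esrra had log2 fold changes of 0.10, 0.17 and 0.08. Oxct1, which activates ketone bodies for use, had a log2 fold change of 0.01.

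Promoters of the pathway are known targets of nuclear receptors of the PPAR and estrogen-related receptor families. RefSeq windows of 250 bases before to 50 bases after the start (GRCm38.p6) were found for 26 of the 32 genes, in 28 entries. The half-site AGGTCA occurred on either strand in 6 of the 28 (21.4%), against 16.3% of 32851 promoters. These 6 belonged to Cpt1a, Acadm, Acadvl, Echs1, Cat and Cd36. The in9 and LV2 values of Cpt1a, Acadm and Acadvl did not overlap, and those of Echs1 and Cat did. None of these tested genes passed the adjusted threshold in limma, and Cd36, listed at 0 throughout, was untested. The longer estrogen-related receptor element TCAAGGTCA occurred in 0 of the 28, against 0.423% of all promoters, and the direct repeat AGGTCANAGGTCA in 0, against 0.0396%, both of which contain the half-site. These counts describe letters in the window only.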

How the data were processed

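Messenger RNA libraries of 4T1 cells, 3 labelled in9 and 3 labelled LV2, were read from 1 table of TPM values deposited by the authors. The genome build, per the submitters' processing notes, was mm10. For the aligner, quantifier and strand setting the sources used here give nothing, and depth per sample is unknown. The deposited gene lengths were not used in a test. The authors' group means equalled the means of the libraries within 3.33e-05, and 0 pairs of libraries were identical. Coordinates and untranslated regions came from GENCODE M21, miRNA and promoter sequences from RefSeq tables.

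Values were taken as log2(TPM + 1) for genes with a mean of at least 1 TPM and compared by limma 3.58.1 (R 4.3.3), using a variance trend on intensity and no block for replicate number. P-values were two-sided and adjusted over all 13406 tested genes. The steps were tested on simulated data. Tables were made with python 3.11.15. The genes and lists were chosen with earlier results of these data known, so no count is independent evidence. All members were named, and of each other list the called genes and up to 3 with the smallest p; a few of these are not reported here. The settings tried instead were another pseudocount (0.1), another filter (none, or 5 TPM), other scalings (trimmed means with 30% of log ratios and 5% of mean levels removed at each end, quantiles, or totals without mitochondrial transcripts), and other models (without trend, weighted libraries, replicate number as block). Fits on protein-coding genes alone and without each library in turn were also made. Protein sequences were not analysed here.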

Additional observations from a re-analysis of the deposited data

How the results depend on the processing

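The median of 0.22 over the 26 tested genes was 0.17 with no filter, 0.15 with trimmed-mean scaling, 0.16 with quantile normalization, and 0.20 to 0.23 without single libraries. Of 415 values of single genes under 16 alternatives, 372 kept their direction and their side of the threshold, 23 passed it newly, 8, all of Aldh2, lost it and 12 changed sign. Those 12 belonged to 6 genes whose differences were near 0. Hadha was at -0.0545 with trimmed-mean scaling, -0.0156 with quantile normalization and -0.0269 to 0.0563 without single libraries. Echs1 was at -0.0171 and -0.0203 in the same settings and -0.0111 to 0.117 without single libraries, and Etfdh at -0.0016 after quantile normalization. Without single libraries Etfa ran from -0.0697 to 0.0022, Eci1 from -0.104 to 0.0359 and Pex5 from -0.0513 to 0.0165.

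Members called higher were 2 with a minimum of 5 TPM, 2 without mitochondrial transcripts, 11 with library weights, 6 with protein-coding genes, 0 after trimmed-mean scaling, 0 with no intensity trend, and 0 to 7 without single libraries. Among the other pathway genes 3 were called higher with a minimum of 5 TPM, 1 after quantile normalization, 1 without mitochondrial transcripts, 19 with library weights (1 lower), 10 with protein-coding genes (1 lower), and 0 to 14 without single libraries (0 to 2 lower). Over all genes 110 were higher and 26 lower, against 24 and 6 with no filter, 27 and 4 with no trend, 1166 and 523 with library weights, 305 and 85 with protein-coding genes, and 6 to 971 and 1 to 509 without single libraries, the most without in9 replicate 1 in each case. With a minimum of 5 TPM 150 were higher and 45 lower over all genes, and without mitochondrial transcripts 128 and 21. After quantile normalization 102 were higher and 35 lower over all genes, and after trimmed-mean scaling 86 and 35. The cause was not tested.

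With a replicate block 1 gene was higher and 1 lower over all genes and 0 of the 26 were called. Libraries with the same replicate number share only that number: the correlations of their deviations from the group means were -0.097, 0.022 and -0.046, and not every library correlated best with its own number. Since TPM keep no depth, counting error is unknown.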
